A study of Homo sapiens with 4 samples.

Results

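The 8 genes described here, TNFSF10, TNFRSF10A, TNFRSF10B, FAS, TNFRSF10D, CASP8, CFLAR and XIAP, encode the core of the extrinsic (death receptor) route to apoptosis, and each matched 1 of the 58735 rows of the count table by its Ensembl identifier. Their transcripts were measured by mRNA sequencing in the triple-negative breast cancer (TNBC) lines MDA-MB-231 and SUM159, both human, after 72 h with 1 μM mebendazole (MBZ), an anthelmintic that binds tubulin, or with DMSO, its solvent, as vehicle control. There was 1 library for each line and treatment, 4 in all, so no difference within a line has a replicate check. The lines were grown in different media, so line and medium cannot be told apart. The comparison asks which of these transcripts were higher or lower with MBZ in each line.

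TNFSF10 (TRAIL) is a death ligand that binds the receptors TNFRSF10A (DR4) and TNFRSF10B (DR5), whereas FAS is the receptor for FAS ligand. Each of the 3 receptors carries a cytoplasmic death domain that recruits the adaptor FADD and procaspase-8, the product of CASP8, which cuts and activates the executioner caspases. TNFRSF10D (DcR2) binds TRAIL but has a truncated death domain and acts as a decoy, CFLAR (cFLIP) competes with caspase-8 at the receptor complex, and XIAP blocks the active executioner caspases. DR5 is widely found on epithelial tumor cells, and the balance between caspase-8 and its brakes is known to shape how such cells respond to TRAIL.

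The promoters of 3 genes are shown because the results turn on these genes. With the main scaling described below, TNFSF10 had the largest change of the 8 genes. By that scaling FAS was the only member of the 8 past 1.5-fold in the MDA-MB-231 line. BIRC3 was, by the same scaling, the only gene among the pathway lists at least 1.5-fold higher in both lines. BIRC3 was chosen for display after its values were seen. Each window holds 250 bases before and 50 bases after the RefSeq start of the gene on GRCh38.p14, written 5′ to 3′ along the gene, and capitals mark motif matches on either strand. FAS has 3 RefSeq starts, and the one at the start of its Ensembl canonical transcript was taken. TNFSF10 lies at chr3:172523381-172523680 on the minus strand, FAS at chr10:88990548-88990847 on the plus strand and BIRC3 at chr11:102317234-102317533 on the plus strand.
TNFSF10: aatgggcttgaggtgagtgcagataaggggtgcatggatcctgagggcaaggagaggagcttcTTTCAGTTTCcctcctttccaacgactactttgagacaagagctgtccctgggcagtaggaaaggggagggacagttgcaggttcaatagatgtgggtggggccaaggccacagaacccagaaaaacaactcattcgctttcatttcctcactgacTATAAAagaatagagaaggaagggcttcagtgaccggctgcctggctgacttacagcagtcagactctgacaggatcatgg
FAS: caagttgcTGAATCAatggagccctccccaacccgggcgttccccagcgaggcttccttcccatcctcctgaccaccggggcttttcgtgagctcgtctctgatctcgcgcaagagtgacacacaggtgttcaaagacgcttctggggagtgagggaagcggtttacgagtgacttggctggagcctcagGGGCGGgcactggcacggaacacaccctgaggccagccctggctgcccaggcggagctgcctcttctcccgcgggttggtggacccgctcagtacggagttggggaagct
BIRC3: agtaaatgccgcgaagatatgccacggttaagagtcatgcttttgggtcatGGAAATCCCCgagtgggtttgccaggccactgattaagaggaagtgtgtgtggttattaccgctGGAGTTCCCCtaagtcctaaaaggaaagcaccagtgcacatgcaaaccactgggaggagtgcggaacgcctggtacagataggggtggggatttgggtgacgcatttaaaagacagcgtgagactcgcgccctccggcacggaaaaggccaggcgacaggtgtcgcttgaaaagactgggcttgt

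The 3 windows differed in composition and in the motifs found. The TNFSF10 window was 51.0% G and C with 3 CpG dinucleotides, the FAS window 63.0% with 18 and the BIRC3 window 53.3% with 15, against medians of 58.7% and 14.0 over 35116 RefSeq promoter windows. A TATA box (TATAAA, held by 11.5% of all windows) lay 31 to 26 bases before the TNFSF10 start, and a match to the interferon-stimulated response element (3.57% of windows) lay farther upstream on the other strand. FAS had a GC box (GGGCGG, 45% of windows) and an AP-1 site (TGANTCA, 7.71% of windows). BIRC3 had 2 matches to the NF-kB consensus, which 11.3% of windows hold. A CCAAT box (CCAAT, 34.6% of windows) was searched as well and had no match in the 3 windows. None of the matches overlapped another, and a match describes the letters only.

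The counts summed to between 17143139 and 24897586 per library and were scaled to a library of 1000000 counts (CPM) with edgeR's TMM factors over the 2 libraries of a line. Where the 4 libraries are ranked below for any of the 8 genes, the ranks named are the same with TMM over the 4 libraries. Over all genes the median change with MBZ was -0.02 on the log2 scale for MDA-MB-231 and -0.03 for SUM159, and 0.25 and 0.27 when libraries were scaled by their totals only, so small changes depend on the scaling. PGR had 0 counts in all 4 libraries and ESR1 at most 18, whereas ERBB2 was between 57.9 and 108 CPM and VIM, a mesenchymal marker, between 1101 and 3228 CPM. Of the luminal markers, KRT8 was between 557 and 1193 CPM and KRT18 between 203 and 479 CPM. The other luminal markers were lower, with EPCAM at most 10.1, GATA3 at most 17.9 and CDH1 at most 0.638 CPM. Fold changes are MBZ over DMSO on the log2 scale, each with a 95% Clopper-Pearson interval computed from the 2 read counts. These intervals cover counting error only, and reads copied by PCR are not independent molecules. A gene was called when it differed by at least 1.5-fold and its mean over the 2 libraries of a line was at least 10 counts, a minimum that all 8 genes passed in both lines.

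Of the 8 genes, 1 was at least 1.5-fold higher with MBZ in the MDA-MB-231 line, against 18.3% of all 15142 genes compared, and 0 were at least 1.5-fold lower, against 15.8%. In SUM159 cells 2 of the 8 were at least 1.5-fold higher, against 21.5% of 15674 genes, and 1 was lower, against 21.7%. Past 1.5-fold, the genes were FAS in the MDA-MB-231 line and TNFRSF10A, TNFRSF10D and TNFSF10 in SUM159 cells. Counted in either direction, this made 1 of 8 against 34.0% of all genes and 3 of 8 against 43.2%. The counting interval lay apart from 0 for 7 of the 8 in MDA-MB-231, against 65.8% of all genes, and for 6 of the 8 in SUM159, against 68.5%. None of the 8 passed 1.5-fold in both lines in the same direction, against 10.8% of the genes compared in both, and with scaling by total counts 1 did, CASP8, against 13.4%. By the main scaling, TNFRSF10B, CASP8, CFLAR and XIAP stayed within 1.5-fold in both. With scaling by total counts, 4 of 8 were past 1.5-fold in MDA-MB-231, against 36.7% of all genes, and 4 of 8 in SUM159, against 45.5%. The median log2 fold change of the 8 was 0.36 in the MDA-MB-231 line and 0.14 in SUM159 cells by the main scaling. With scaling by total counts it was 0.62 and 0.44.

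**Figure D1:**
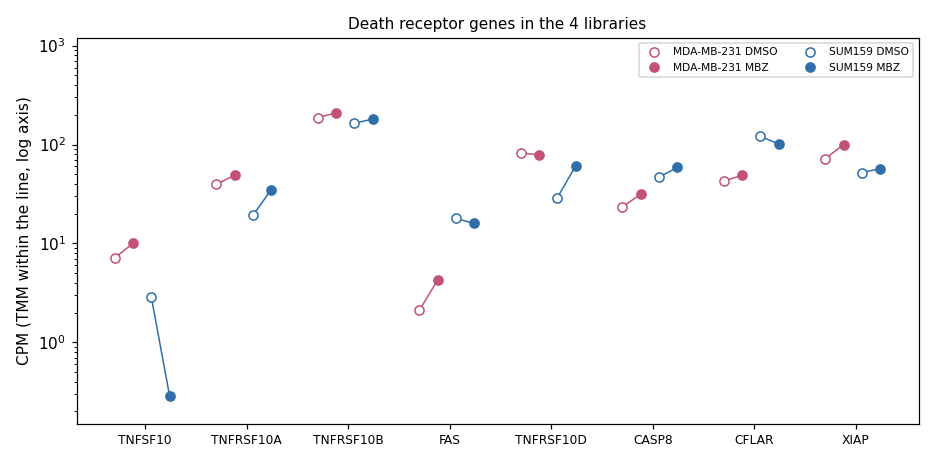
Level of each of the 8 genes in the 4 libraries, in CPM with TMM scaling within the line, on a log axis. Open circles are DMSO, filled circles MBZ, red MDA-MB-231 and blue SUM159, with a line joining the 2 libraries of a cell line; TNFSF10 drops from 2.85 to 0.286 CPM in SUM159 cells, whereas TNFRSF10B stays between 164 and 209 CPM in every library.

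The ligand gene TNFSF10 (ENSG00000121858, chromosome 3 from 172505508 to 172523475 of GRCh38, minus strand, 5 exons in its canonical transcript) moved in opposite directions in the 2 lines. It had 163 reads with DMSO against 188 with MBZ in the MDA-MB-231 line, and 48 and 6 counts in SUM159 cells. In CPM this was 7.18 and 10 in the MDA-MB-231 line, and 2.85 and 0.286 in SUM159 cells. The SUM159 library with MBZ was the lowest of the 4 and the MDA-MB-231 library with MBZ the highest. The log2 fold change was 0.48 (counting interval 0.17 to 0.79) in the MDA-MB-231 line and -3.29 (counting interval -4.83 to -2.09) in SUM159 cells, where the level was 9.76-fold lower with MBZ. The difference of the changes, SUM159 minus MDA-MB-231, was -3.76 on the log2 scale, with a counting interval from -5.34 to -2.51. Both directions were kept under each of the 3 other scalings. The counting intervals of the lines lay on opposite sides of 0 for 2 of the 8 genes, TNFSF10 and CFLAR, against 20.0% of the 13733 genes compared in both lines. With 6 reads in 1 library, the size of the drop is known only within its wide interval.

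Of 3 genes listed as leukocyte markers, 2 were lower with MBZ in SUM159 cells, as was TNFSF10. PTPRC (CD45) went from 216 to 60 counts and CD14 from 477 to 110, while CD3E had 0 counts with DMSO and 1 with MBZ. Thus 2 of the 3 markers were past 1.5-fold lower, against 21.7% of all genes compared in SUM159 cells. The summed level of the 3 markers went from 41.1 to 8.15 CPM. In MDA-MB-231 cells PTPRC went from 8 to 23 counts (1.78 on the log2 scale, counting interval 0.58 to 3.17) and CD14 from 53 to 40, CD3E had 0, and the sum was 2.69 CPM with DMSO and 3.35 with MBZ. The libraries came from cultured cell lines, so reads of these genes do not show that leukocytes were present and may come from the tumor cells. In bulk RNA, fewer cells of a type and less RNA per cell cannot be told apart. The source of these reads and any link to the TNFSF10 change were not tested.

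TNFRSF10A (ENSG00000104689), the gene of DR4, lies on chromosome 8 from 23190452 to 23225102 and was past 1.5-fold higher in SUM159 cells. It went from 899 to 917 reads with MBZ in the MDA-MB-231 line, or 39.6 and 48.8 CPM, and 323 and 730 counts in SUM159 cells, or 19.2 and 34.8 CPM. The SUM159 library with DMSO was the lowest of the 4. Its log2 fold change was 0.30 (counting interval 0.17 to 0.44) in the MDA-MB-231 line and 0.86 (counting interval 0.67 to 1.05) in SUM159 cells, a difference of 0.56 (counting interval 0.32 to 0.80). The lines were therefore alike in direction and unlike in size beyond counting error.

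TNFRSF10B (ENSG00000120889, chromosome 8 from 23020133 to 23069031), the gene of DR5, had the most counts of the 8 in every library and was within 1.5-fold in both lines. Its 4250 and 3935 counts with DMSO and MBZ in the MDA-MB-231 line came to 187 and 209 CPM, and its 2764 and 3804 counts in SUM159 cells to 164 and 181 CPM. All 4 levels lay close together. The log2 fold changes were 0.16 (counting interval 0.10 to 0.22) and 0.14 (counting interval 0.07 to 0.22), and their difference of -0.02 (counting interval -0.11 to 0.08) could not be told from 0 at this depth. With scaling by total counts they were 0.43 and 0.45.

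FAS (ENSG00000026103, chromosome 10 from 88953813 to 89029605, plus strand, 9 exons in its canonical transcript) was past 1.5-fold higher only in the MDA-MB-231 line, where it was scarce. It had 48 counts with DMSO and 80 with MBZ there, or 2.11 and 4.26 CPM, and 302 and 333 counts in SUM159 cells, or 17.9 and 15.9 CPM. Both SUM159 libraries lay above both MDA-MB-231 libraries. In the MDA-MB-231 line its log2 fold change was 1.01 (counting interval 0.48 to 1.56), a 2.01-fold higher level, whereas in SUM159 cells the value of -0.18 (counting interval -0.40 to 0.05) could not be told from 0 and was 0.13 with scaling by total counts. The changes differed by -1.18 (counting interval -1.78 to -0.60). Exons of FAS share 387 bases with ACTA2 on the opposite strand and 166 with STAMBPL1 on the same strand, and its value depends on how such reads were counted.

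TNFRSF10D (ENSG00000173530, chromosome 8 from 23135588 to 23164027), the decoy, was past 1.5-fold higher in SUM159 cells and nearly level in the MDA-MB-231 line. In MDA-MB-231 cells it had 1864 and 1476 counts with DMSO and MBZ, or 82.1 and 78.5 CPM, and in SUM159 cells 490 and 1275 counts, or 29.1 and 60.8 CPM. The SUM159 library with DMSO stood below the other 3. Its log2 fold change in SUM159 cells was 1.06 (counting interval 0.91 to 1.22), a 2.09-fold higher level. In MDA-MB-231 cells it was -0.06 (counting interval -0.16 to 0.04), and 0.20 with scaling by total counts. The change in SUM159 cells exceeded that in the MDA-MB-231 line by 1.13 (counting interval 0.95 to 1.31). TNFRSF10A, TNFRSF10B and TNFRSF10D are tandem paralogs, and how reads that align to more than 1 place were counted is not given in the sources used here.

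**Figure D2:**
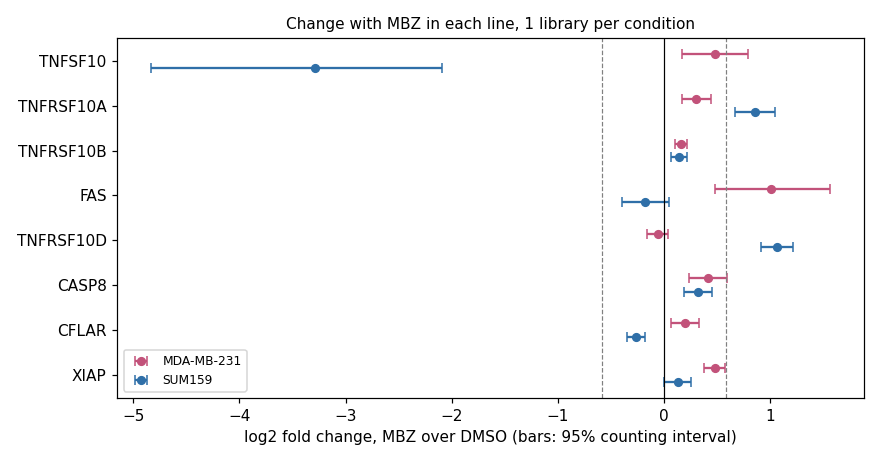
The log2 fold change of MBZ over DMSO for each of the 8 genes on the horizontal axis, red for MDA-MB-231 and blue for SUM159, with bars for the 95% counting interval and dashed lines at 1.5-fold. FAS at 1.01 in the MDA-MB-231 line and TNFRSF10A at 0.86, TNFRSF10D at 1.06 and TNFSF10 at -3.29 in SUM159 cells are the points outside the dashed lines.

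CASP8 (ENSG00000064012, chromosome 2 from 201233443 to 201361836), the initiator caspase, was higher with MBZ in both lines by less than 1.5-fold. Its counts with DMSO and MBZ were 533 and 588 in the MDA-MB-231 line, or 23.5 and 31.3 CPM, and 789 and 1229 in SUM159 cells, or 46.8 and 58.6 CPM. Both SUM159 libraries were above both MDA-MB-231 libraries. The log2 fold changes of 0.41 (counting interval 0.24 to 0.59) and 0.32 (counting interval 0.19 to 0.45) both lay above 0, and their difference of -0.09 (counting interval -0.31 to 0.13) did not leave counting error.

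CFLAR (ENSG00000003402, chromosome 2 from 201116154 to 201176687), which lies near CASP8 with CASP10 between them, stayed within 1.5-fold in both lines. It had 967 and 920 counts in the MDA-MB-231 line with DMSO and MBZ, or 42.6 and 48.9 CPM, and 2041 and 2115 in SUM159 cells, or 121 and 101 CPM. SUM159 cells again held more of it with either treatment. The log2 fold changes were 0.20 (counting interval 0.07 to 0.33) in the MDA-MB-231 line and -0.26 (counting interval -0.35 to -0.18) in SUM159 cells, but the latter was 0.04 with scaling by total counts, so its direction in SUM159 cells depends on the scaling. The difference between the lines of -0.47 (counting interval -0.62 to -0.31) was between -0.48 and -0.40 under the other scalings. The counts do not separate the long and short forms of cFLIP. On the opposite strand, 777 exonic bases are shared with CFLAR-AS1 and 1488 with the pseudogene IMPDH1P10. On the same strand, 445 are shared with ENSG00000234431.

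XIAP (ENSG00000101966, chromosome X from 123859712 to 123913972) was higher with MBZ in the MDA-MB-231 line by less than 1.5-fold. Its counts with DMSO and MBZ were 1638 and 1889, or 72.1 and 100 CPM, in the MDA-MB-231 line and 878 and 1193, or 52.1 and 56.9 CPM, in SUM159 cells. The MDA-MB-231 library with MBZ was the highest. The log2 fold change was 0.48 (counting interval 0.38 to 0.57) in the MDA-MB-231 line and 0.13 (counting interval 0.00 to 0.25) in SUM159 cells. With scaling by total counts, XIAP, TNFSF10 and CASP8 in the MDA-MB-231 line were also past 1.5-fold, at 0.74, 0.74 and 0.68, as was CASP8 in SUM159 cells at 0.62.

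Ratios of 2 genes within a library do not depend on the scaling, and 4 were computed, chosen after the values were seen. CFLAR had 2.59 reads for each CASP8 read in SUM159 cells with DMSO and 1.72 with MBZ, a log2 change of -0.59 (counting interval -0.75 to -0.43). In MDA-MB-231 cells the ratio went from 1.81 to 1.56, a log2 change of -0.21 (counting interval -0.43 to 0.00). The decoy TNFRSF10D went from 0.177 to 0.335 reads for each TNFRSF10B read in SUM159 cells, a log2 change of 0.92 (counting interval 0.75 to 1.09), and from 0.439 to 0.375 in the MDA-MB-231 line, a log2 change of -0.23 (counting interval -0.34 to -0.11). After MBZ the SUM159 ratio therefore stood closer to that of the MDA-MB-231 line than before. TNFRSF10A over TNFRSF10B changed by 0.72 (counting interval 0.51 to 0.92) in SUM159 cells and 0.14 (counting interval -0.01 to 0.29) in the MDA-MB-231 line. XIAP over CASP8 changed by -0.20 (counting interval -0.38 to -0.01) and 0.06 (counting interval -0.13 to 0.26), respectively.

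**Figure D3:**
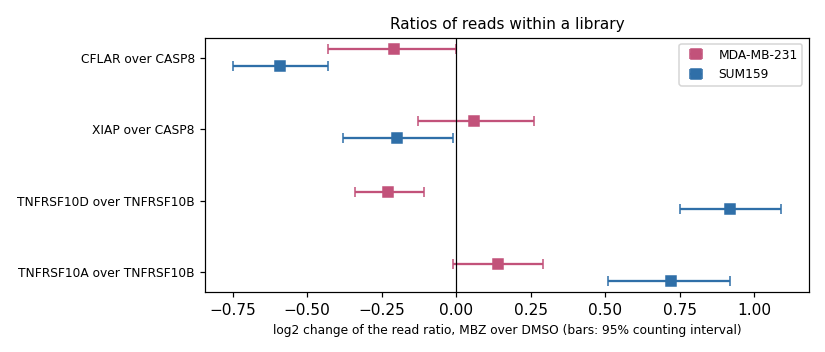
Log2 change with MBZ of 4 ratios of reads within a library, red for MDA-MB-231 and blue for SUM159, with bars for the 95% counting interval. The ratio of TNFRSF10D to TNFRSF10B changed by 0.92 in SUM159 cells and by -0.23 in the MDA-MB-231 line, and the ratio of CFLAR to CASP8 is below 0 in both lines.

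The lines were also compared with each other, in levels scaled by TMM over all 4 libraries. With DMSO, FAS was 8.80-fold higher in SUM159 than in the MDA-MB-231 line (log2 ratio 3.14, interval 2.70 to 3.61), CFLAR 2.96-fold and CASP8 2.08-fold higher. TNFRSF10D was 2.71-fold, TNFSF10 2.42-fold and TNFRSF10A 1.98-fold higher in the MDA-MB-231 line. TNFRSF10B and XIAP were nearest to parity, 1.10-fold and 1.33-fold higher in the MDA-MB-231 line. With MBZ, TNFRSF10D was 1.26-fold and TNFRSF10A 1.36-fold higher in the MDA-MB-231 line, smaller gaps than with DMSO, while that of TNFSF10 was 33.3-fold. These ratios compare single libraries of 2 lines.

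Per length, as RPKM over the summed exons of each gene, TNFRSF10B had the highest level of the 8 in every library, between 33.3 and 41.3 RPKM, followed by TNFRSF10D and TNFRSF10A when summed exons were the length. The order in the MDA-MB-231 line with DMSO was then XIAP at 7.40, CASP8 at 3.17, TNFSF10 at 2.04, CFLAR at 1.85 and FAS at 0.0704 RPKM, and TNFSF10 and CFLAR were not distinguishable. With MBZ the order was the same and TNFSF10 at 2.87 was above CFLAR at 2.15 RPKM beyond counting error. In SUM159 cells with DMSO, TNFRSF10D at 8.37 was followed by TNFRSF10A at 6.66 and CASP8 at 6.58, which did not differ beyond counting error, and by XIAP at 5.57 and CFLAR at 5.48, which did not either. TNFSF10 at 0.842 and FAS at 0.622 RPKM came last there and overlapped within counting error. With MBZ in SUM159 cells all neighbors were apart, and TNFSF10 was last at 0.0845 RPKM. The order depends on the length used. Over its canonical transcript of 2659 bases in place of 7237 summed exonic bases, CASP8 was at 17.9 and 22.4 RPKM in SUM159 cells with DMSO and MBZ, above TNFRSF10D at 8.37 and 17.5 and second to TNFRSF10B. FAS, with 29313 summed exonic bases and a canonical transcript of 3696 bases, was at 4.93 RPKM in SUM159 cells with DMSO by the latter.

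A change alike in both lines was tested by quasi-likelihood in edgeR, with terms for line and treatment, so that the 2 lines serve as the replicates and the spread between cultures stays unmeasured. None of the 8 genes had an adjusted p under 0.05 (Benjamini-Hochberg over 16100 genes), against 0.00621% of all genes, and 0 of the 8 had an unadjusted p under 0.05, against 7.14%. DESeq2's Wald test and the 3 other fits called none of the 8 either, but the share of all genes that they called is not given here. TNFRSF10A had the smallest p, at 0.62 on the log2 scale for both lines (standard error 0.30, adjusted p = 0.721 in edgeR's quasi-likelihood test, from 0.700 to 1.0 over the alternatives). TNFSF10 was at -1.04 (standard error 0.96, adjusted p = 0.849 in the same edgeR test), with the 2 lines on opposite sides of 0, and at 0.05 when the model left out the line. CASP8 was at 0.41 (standard error 0.28, adjusted p = 0.790 in this edgeR test), higher in both lines.

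Around the 8 genes, 41 others of the pathway were examined in lists by role. In each line 32 of them reached the minimum of 10 counts, though not the same 32 in both. In MDA-MB-231 cells 5 were at least 1.5-fold higher (18.3% of all genes) and 7 lower (15.8%), and in SUM159 cells 5 were higher (21.5%) and 6 lower (21.7%). With scaling by total counts these were 11 higher (29.1% of all genes) and 3 lower (7.57%), and 9 higher (32.8%) and 3 lower (12.8%), so the balance of directions depends on the scaling. Their median log2 fold changes were -0.13 in MDA-MB-231 and 0.05 in SUM159 cells, and 0.14 and 0.35 with scaling by total counts. In both lines 30 could be compared, of which 1 was higher in both (6.12% of all genes), 2 were lower in both (4.71% of all genes) and 15 were within 1.5-fold in both (45.5% of all genes). With scaling by total counts 4 were higher in both (11.8% of all genes), namely BIRC3, CASP9, CYCS and MLKL, and 2 were lower in both (1.61% of all genes).

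**Figure D4:**
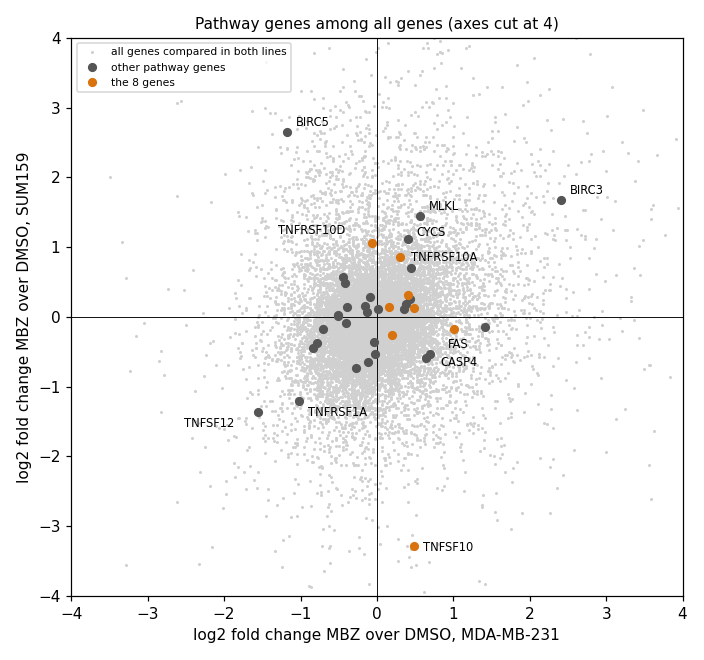
Log2 fold change of MBZ over DMSO in the MDA-MB-231 line (horizontal) against SUM159 cells (vertical). Grey points are all 13733 genes compared in both lines, dark points the 30 other pathway genes and orange points the 8 genes. BIRC3 is high in both lines, and BIRC5 and TNFSF10 lie in quadrants of opposite change. Within 1.5-fold in both lines lie 15 of the 30 and 4 of the 8, against 45.5% of all genes.

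Among the other ligands, TNFSF12 (TWEAK) was lower with MBZ in both lines, from 321 to 90 counts in the MDA-MB-231 line and from 240 to 116 in SUM159 cells, which gave log2 fold changes of -1.56 (counting interval -1.92 to -1.22) and -1.36 (counting interval -1.70 to -1.04). Its exons share 553 bases with the readthrough gene TNFSF12-TNFSF13. FASLG, the ligand of FAS, had 0 counts in all 4 libraries, which allows up to 0.120 to 0.175 CPM by total counts. TNF reads numbered 30 and 50 in SUM159 cells without and with MBZ, or 0.42 on the log2 scale (counting interval -0.26 to 1.12), and at most 1 in the MDA-MB-231 line.

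Of the other receptors, TNFRSF1A, the main receptor of TNF, was the one lower in both lines. It went from 9514 to 3880 counts in the MDA-MB-231 line and from 8867 to 4820 in SUM159 cells, which gave log2 fold changes of -1.02 (counting interval -1.08 to -0.97) and -1.20 (counting interval -1.25 to -1.14). In the shared edgeR test it was at -1.07 (standard error 0.32, adjusted p = 0.601 by the quasi-likelihood test, from 0.0991 to 1.0 over the alternatives), lower in 2 of 2 lines. TNFRSF21 (DR6) was 33.7-fold higher in MDA-MB-231 than in SUM159 cells with DMSO, with log2 fold changes of -0.45 and 0.57. TNFRSF25 (DR3) was at 1.42 (counting interval 0.44 to 2.5) in the MDA-MB-231 line, from 13 to 29 counts, and at -0.15 in SUM159 cells. TNFRSF11B (osteoprotegerin), a soluble decoy of TRAIL, went from 33 to 64 counts in the MDA-MB-231 line and from 7 to 1 in SUM159 cells, where it was under the minimum. The decoy TNFRSF10C had at most 10 counts. TNFRSF6B was listed at 0, but all of its 1140 exonic bases are shared with RTEL1-TNFRSF6B on the same strand, so the 0 carries no information on its level.

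Of the 7 adaptors, 0 were past 1.5-fold in the MDA-MB-231 line (34.0% of all genes) and 1 was in SUM159 cells (43.2% of all genes). That gene was RIPK1, a kinase at the TNF receptor, at -0.65 (counting interval -0.81 to -0.48), which was -0.35 with scaling by total counts. FADD, which links FAS, DR4 and DR5 to caspase-8, was at -0.51 (counting interval -0.62 to -0.39) in the MDA-MB-231 line and 0.02 (counting interval -0.17 to 0.22) in SUM159 cells.

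CASP6, a caspase cut by other caspases, was past 1.5-fold lower in the MDA-MB-231 line at -0.70 (counting interval -0.87 to -0.53), but at -0.43 with scaling by total counts. Among the initiators, CASP2 was at -0.78 (counting interval -0.91 to -0.65), or -0.52 with scaling by total counts, in the MDA-MB-231 line and CASP9, the caspase of the apoptosome, at 0.70 (counting interval 0.41 to 1.00) in SUM159 cells. CASP10, next to CASP8 in the genome, was within 1.5-fold in both. The inflammatory caspases CASP1 and CASP4 were 53.5-fold and 7.79-fold higher in SUM159 than in MDA-MB-231 cells with DMSO. CASP1 had 24 and 31 counts in the MDA-MB-231 line with DMSO and MBZ and 921 and 763 in SUM159 cells, which gave log2 fold changes of 0.64 (counting interval -0.17 to 1.47) and -0.59 (counting interval -0.73 to -0.45), the latter -0.29 with scaling by total counts. CASP4 was at 0.69 (counting interval 0.47 to 0.91) and -0.53 (counting interval -0.64 to -0.43).

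BIRC3 was the one of the other brakes past 1.5-fold in the same direction in both lines. This gene (cIAP2), a ubiquitin ligase that restrains TNF receptor signaling to caspase-8 and is known as an NF-kB target, went from 359 to 1582 counts in the MDA-MB-231 line and from 409 to 1616 in SUM159 cells. It was 5.32-fold and 3.17-fold higher with MBZ, log2 fold changes of 2.41 (counting interval 2.25 to 2.58) and 1.67 (counting interval 1.51 to 1.83). Over both lines it was at 2.08 (standard error 0.32, adjusted p = 0.327 in edgeR's quasi-likelihood test), higher in 2 of 2 lines. The adjusted p was 0.00122 with DESeq2's Wald test, 1.26e-05 when genes needed only 1 count to enter and up to 1.0 when the model left out the line. BIRC2 (cIAP1), its neighbor on chromosome 11, was within 1.5-fold at 0.36 and 0.11. BIRC5 (survivin), which is also a mitotic protein and is transcribed mainly in dividing cells, went from 6460 to 2362 counts in the MDA-MB-231 line and from 416 to 3249 in SUM159 cells, which gave log2 fold changes of -1.18 (counting interval -1.25 to -1.11) and 2.65 (counting interval 2.5 to 2.80). BIRC6 was at -0.04 and -0.36. BIRC7 (livin) was scarce, with 22 counts in SUM159 cells with DMSO and 4 with MBZ, or -2.73 (counting interval -4.77 to -1.22), and with at most 1 count in the MDA-MB-231 line.

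On the mitochondrial side, CYCS, which encodes cytochrome c, was at 0.40 (counting interval 0.33 to 0.47) and 1.11 (counting interval 1.01 to 1.20), past 1.5-fold in SUM159 cells. BID, the caspase-8 substrate that carries the signal to mitochondria, was at -0.84 (counting interval -0.98 to -0.70), or -0.57 with scaling by total counts, in the MDA-MB-231 line and -0.44 (counting interval -0.52 to -0.37) in SUM159 cells. DIABLO, an antagonist of XIAP, was past 1.5-fold lower in SUM159 cells at -0.73 (counting interval -1.30 to -0.17), from 64 to 48 counts, and at -0.43 with scaling by total counts. Its exons share 2192 and 1139 bases with 2 other protein-coding genes of the table on the same strand, and union mode gives reads in such bases to none of the genes. MLKL, the effector of necroptosis, was higher in SUM159 cells at 1.44 (counting interval 1.17 to 1.73) and at 0.56 (counting interval 0.36 to 0.76) in the MDA-MB-231 line, while its activating kinase RIPK3 had 18 and 9 counts in the MDA-MB-231 line and 0 in both SUM159 libraries.

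The genes with the pattern most like that of each of the 8 were sought among the 11152 genes that averaged 100 counts or more, by Euclidean distance over the 4 libraries of log2 CPM centered on each gene. Nearest were CDC7 to TNFRSF10A (distance 0.0430), C9orf78 to TNFRSF10B (0.0277), CAB39L to TNFRSF10D (0.0694), VGLL3 to FAS (0.121), SLC37A1 to CASP8 (0.0834), TMEM205 to CFLAR (0.0920) and COX11 to XIAP (0.0295). The next nearest were CDK5RAP3 to TNFRSF10A (0.0634), C18orf25 to TNFRSF10B (0.0424), EMC9 to TNFRSF10D (0.0747), MAGEH1 to FAS (0.190), PRPF40B to CASP8 (0.0947), IQCD to CFLAR (0.0936) and C22orf46P to XIAP (0.0403). TNFSF10 had no close neighbor, the nearest being MAMDC2 at 0.563 and GPRASP3 at 0.610. MAMDC2 went from 46 to 9 counts and GPRASP3 from 71 to 14 in SUM159 cells, both with a log2 fold change of -2.65. Over 4 libraries many genes share a pattern, and the distances are a description only.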

How the data were processed

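RNA of 2 cell lines with 1 library per condition was sequenced as paired reads after mRNA enrichment. Per the labels and the study's methods, the authors aligned to GRCh38 (STAR 2.5) and assigned reads to genes by HTSeq 0.6.1 (union mode), and the deposited table holds these raw counts as whole numbers; the annotation release and strand setting are not given in the sources used here. Samples were grouped by the labels of line and MBZ dose. Symbols, coordinates and lengths came from GENCODE release 44 (GRCh38), and promoters from RefSeq (GRCh38.p14).

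Differences of log2 CPM, MBZ minus DMSO, came from edgeR 4.0.16 under R 4.3.3 (prior count 0.125, TMM within the line). Intervals were Clopper-Pearson for 2 counts and exact conditional odds ratios for 4, both at 95%. The shared test used filterByExpr, TMM over the 4 libraries, glmQLFit and glmQLFTest, with Benjamini-Hochberg adjustment over all genes tested and a threshold of 0.05. DESeq2 1.42.0 gave alternative size factors and a Wald test. Functions were tested on simulated counts.

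The 8 genes, the lists and the tests were chosen with earlier results of these data known. Named genes are the 8, pathway genes that averaged 10 counts or more in both lines and changed at least 1.5-fold in 1 or more, and the 2 nearest genes of each of the 8; FASLG, TNF, TNFRSF10C, TNFRSF6B, TNFRSF11B, RIPK3, BIRC7, APAF1, FADD, BIRC2, BIRC6, CASP10 and TNFRSF21 are outside this rule and were named after their values were seen. Marker genes come from separate lists of cell type markers. Alternatives were other scalings, a prior count of 2, other thresholds, and the length of the longest transcript. The length of the canonical transcript was added after seeing the data. RPKM values divide CPM (TMM over the 4 libraries) by the gene's summed exon length in kilobases.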

Additional observations from a re-analysis of the deposited data

Results flagged for a closer look

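In 2 of the 8 genes and 4 of the 30 other pathway genes compared, the counting intervals of the 2 lines lay on opposite sides of 0, against 20.0% of all 13733 genes compared in both lines. These differences between the lines were not tested, since each line had 1 library per treatment. The change with MBZ in SUM159 cells minus that in MDA-MB-231 cells, on the log2 scale, was -3.76 for TNFSF10 and -0.47 for CFLAR. It was 1.02 for TNFRSF21, -1.22 for CASP4, 3.83 for BIRC5 and 0.90 for APAF1, the scaffold of the apoptosome. For CFLAR the opposite direction rests on the scaling, since its value in SUM159 cells was 0.04 with total counts.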

How the results depend on the processing

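With 1 gene of the 8 past 1.5-fold in MDA-MB-231 cells (34.0% of all genes), scaling by total counts gave 4 (36.7%), a mean of at least 100 counts 0 (25.7%), and a counting interval that excludes 0 gave 7 (65.8%). The exact test of edgeR, with an adjusted p under 0.005 and a log2 change over 1, gave 0 at a preset biological coefficient of variation (BCV) of 0.1, 0.2 or 0.4 (8.63%, 1.76% and 0.00660% of all genes). That BCV is assumed, not measured, so these calls compare the libraries and not the conditions. In SUM159 cells, with 3 of 8 (43.2% of all genes), total counts gave 4 (45.5%), the interval rule 6 (68.5%), a mean of at least 100 counts 2 without TNFSF10 (34.2%), 2-fold 2 without TNFRSF10A (23.4%), and the exact test 2, 1 and 0 at the same BCVs (17%, 6.80% and 0.255%), the 1 being TNFSF10. At 2-fold, other pathway genes past the threshold numbered 6 in place of 12 for MDA-MB-231 and 7 in place of 11 for SUM159, against 14.2% and 23.4% of all genes. CFLAR in SUM159 cells turned from -0.26 to 0.04 with total counts. The differences between the lines moved by less than their counting intervals under the 3 other scalings. No fit for a shared change called any of the 8 genes. The main fit called 0.00621% of all genes and the share for the other fits is not given, so this lack of calls says little about the 8. Levels per length moved with the length used. Replicates could not be paired, because each group has 1 library. The line was a term in the test for a shared change, which pairs MBZ with DMSO within each line. The count of 6 for TNFSF10 and of 48 for FAS limit the precision of their changes.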
